A study of Bos taurus with 6 samples.

Results

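The region described here was the interval from 25000001 to 29000000 on cattle chromosome 23 in assembly UMD3.1.1, which was taken, as a given position, to hold the main part of the bovine major histocompatibility complex (MHC). Its members were the 500-bp windows, counted from position 1 of the chromosome, in which at least 10 reads at CpG cytosines had been collected over 6 libraries of whole-genome bisulfite sequencing (WGBS). Of the 8000 windows in the interval, 3683 (46.0%) met this rule. On the rest of chromosome 23, 56075 of 97059 windows (57.8%) did, and the whole series held 2494593 such windows. The rule used read depth and position only, so that methylation levels did not choose the members. Here and below, a read is counted at each CpG cytosine that it covers. Numbers of reads are thus not numbers of sequenced reads, since 1 sequenced read over several CpGs is counted at each.

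The MHC, called BoLA in cattle, is a gene-dense region of the immune system. Its class I genes encode receptors that show peptides from inside the cell to cytotoxic T cells, and its class II genes encode receptors that show peptides taken up from outside to helper T cells. Between them lie the class III genes, which include complement components (C2, C4A, CFB), the cytokines TNF, LTA and LTB, and the heat shock protein HSPA1A. In cattle the class II genes sit in separate clusters, and the class IIb cluster lies far from the other classes on the same chromosome. Methyl groups are carried by most CpG cytosines in mammalian DNA, whereas CpG islands, which are CpG-rich stretches at many promoters, are usually free of them.

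Genes were not placed in the windows, and the name of the interval was not checked against genes, because the annotation at hand is of another assembly. Among 87 BoLA and MHC gene symbols, 83 were matched by symbol or synonym on chromosome 23 of the RefSeq annotation of ARS-UCD2.0, and only their order among its 703 protein-coding genes was used. The class IIa genes, such as BOLA-DRA and BOLA-DRB3, stood at places 276 to 283. They were followed by class III genes at places 297 to 354, from NOTCH4 to DDX39B. Of the genes listed as class I, MIC2 and MIC1 stood at places 359 and 361, and BOLA-NC1, JSP.1 and BOLA at places 393 to 396. Extended class I genes from POU5F1 to UBD stood at places 363 to 414. The antigen-processing genes TAP1, TAP2, PSMB8 and PSMB9 and the class IIb genes from BOLA-DYA to BOLA-DOA stood apart, at places 23 to 35. BLA-DQB, which had been listed with class IIb, was matched as a synonym of BOLA-DQB1 and stood at place 279 among the class IIa genes. MIC3 was matched to MIC1, at place 361, so that this gene was counted under both symbols.

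All libraries were made from rumen epithelial primary cells (REPC), grown from the lining of the first stomach chamber of 1 Holstein bull calf that had received milk replacer and no solid feed. There were 3 libraries of untreated cells, the control replicates, and 3 libraries of cells exposed to 5 mM butyrate for 24 h, the butyrate replicates. Butyrate is a short-chain fatty acid of rumen fermentation that inhibits histone deacetylases. Since all cells came from 1 animal, the spread between replicates is that of cultures or libraries and does not cover differences between animals. Sequencing lane was partly confounded with treatment, because lane 5 held only butyrate replicates 1 and 3, while butyrate replicate 2 shared lane 6 with the controls.

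Coverage was thin in the interval, at 2.85 reads per CpG cytosine over the 6 libraries, as on the rest of chromosome 23, at 2.94. Each library placed 27020 to 34366 reads, counted per CpG cytosine, in the interval. These were out of 18793438 to 23842285 in the whole genome, and they covered 20912 to 25109 CpG cytosines. The libraries together showed 62302 CpG cytosines, but each single library covered only part of them. Reads from all 6 libraries were found at 728 cytosines, and 22 cytosines had at least 10 reads in every library. A member held a median of 27 reads and 10 CpG cytosines over the 6 libraries, so that the level of a single window was mostly taken from the 6 libraries together. Members held 93.8% of the reads of the interval. Another 2723 windows had at least 1 CpG cytosine seen but fewer than 10 reads, and 1594 had none. At the edge of the rule, the 195 windows with 10 reads had a level of 61.3% and the 180 windows with 9 reads a level of 62.2%.

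The first comparison asked how the methylation level of the interval, which is the share of reads that were methylated over all its CpG cytosines, compared with the rest of chromosome 23. In the interval, the level was 54.9%, 54.9% and 55.9% in control replicates 1 to 3 and 56.5%, 56.1% and 55.4% in butyrate replicates 1 to 3. On the rest of the chromosome it was 67.7%, 67.6% and 67.7% in control and 68.2%, 68.0% and 68.3% in butyrate. Every library was lower in the interval, by 11.7 to 12.9 percentage points. The mean difference was -12.3 points ± 0.532 (SD, n = 6), and the two-sided exact sign-flip permutation test over libraries gave p = 0.03125, the smallest that 6 libraries allow. Against all other autosomes the difference was -10.7 points (p = 0.03125 in the same exact test).

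The low level extended beyond the interval. Among 607 blocks of 4 Mb on the autosomes, the interval was lower than 580 and higher than 26. On chromosome 23, the block just after it, from 29000001 to 33000000, was lower, with a level of 47.7% ± 0.768 (SD, n = 6). The block just before it, from 21000001 to 25000000, was the third lowest of the 12 on the chromosome, at 58.9% ± 0.39995 (SD, n = 6). The interval lay 3.35 points below the block before it and 7.84 points above the block after it, in 6 of 6 libraries each (two-sided exact sign-flip permutation p = 0.03125). The low level thus did not end at the bounds of the interval, and with both neighbours left out of the rest the difference was -13.97 points (p = 0.03125 in the same exact test).

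The level was next compared between windows of like CpG density. Density was taken as the number of CpG cytosines in a 500-bp window that had a read in 1 or more libraries. With only seen cytosines counted, a low density can come from few CpGs or from few reads, and these cannot be told apart here. Sparse, rich and dense therefore refer to cytosines seen and not to the CpG content of the genome. The interval had 15.6 seen cytosines per kb and the rest of the chromosome 18.9 per kb. In windows with 1 to 5 cytosines, the level was 58.9% ± 1.06 in the interval and 67.6% ± 0.296 on the rest (SD, n = 6 libraries each). In windows with 6 to 15 cytosines it was 67.1% ± 0.926 against 73.9% ± 0.302, and with 16 to 30 cytosines 67.2% ± 0.633 against 73.9% ± 0.277 (SD, n = 6). In the densest windows, with over 30 cytosines, it was 35.9% ± 1.11 in the interval and 57.0% ± 0.331 on the rest (SD, n = 6).

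All 6 libraries were lower in the interval in each of the 4 density classes, and the groups of interval and rest values did not overlap in any of them (two-sided exact sign-flip permutation p = 0.03125 each). The difference was -21.1 points in the densest class and -8.76, -6.74 and -6.67 points in the classes of 1 to 5, 6 to 15 and 16 to 30 cytosines. When both parts were given the same weights for the 4 classes, the interval lay -11.5 points from the rest (p = 0.03125 in the same exact test). At equal density, the interval was 2.42 points above the block before it and 9.32 points above the block after it, in 6 of 6 libraries each. The direction against the block before it thus turned with the weighting. The level of the densest windows was 32.8% ± 1.77 in that block and 26.1% ± 0.968 in the block after the interval (SD, n = 6).

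**Figure D1:**
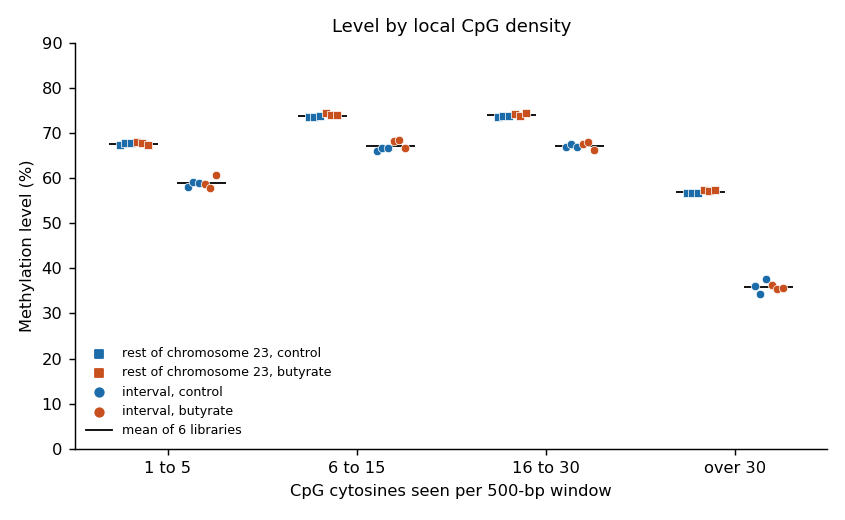
Methylation level (%) of 500-bp windows by the number of CpG cytosines seen, with 1 point per library (control blue, butyrate orange), squares for the rest of chromosome 23, circles for the interval and lines for the mean of 6 libraries. The interval lies lower in each class, and most so in windows with over 30 cytosines, at 35.9% against 57.0%.

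Window by window, the members of the interval were shifted from the high to the low end. Their median level was 71.3%, against 79.3% for windows of the rest chosen by the same rule. Of the 3683 members, 416 (11.3%) had a pooled level under 20%, here called low, against 6.05% on the rest. In contrast, 1334 (36.2%) had a level of 80% or more, here called high, against 49.5% on the rest. The remaining 1933 members (52.5%) were intermediate, against 44.4%. The low members were rich in cytosines, with a median of 25 cytosines against 10 for the other members, and they held 25.1% of the reads of all members, against 12.3% on the rest. The neighbouring blocks were shifted too. After the interval, 632 members (19.1%) were low and 33.9% high, and before it 7.71% were low and 27.1% high. The low share of the interval thus lay between those of its neighbours, and its high share was above both.

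The share of low windows was also counted within each library, over the 724 to 989 windows of the interval that had 10 or more reads in that library. It was 25.6%, 21.8% and 23.4% in control replicates 1 to 3 and 24.8%, 24.1% and 26.2% in butyrate replicates 1 to 3. On the rest of the chromosome it ran from 11.5% to 12.8%. Each library thus had about the same excess, of 12.2 points ± 1.22 (SD, n = 6, two-sided exact sign-flip permutation p = 0.03125). The low share did not separate the treatments, since control replicate 1 lay within the butyrate range.

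**Figure D2:**
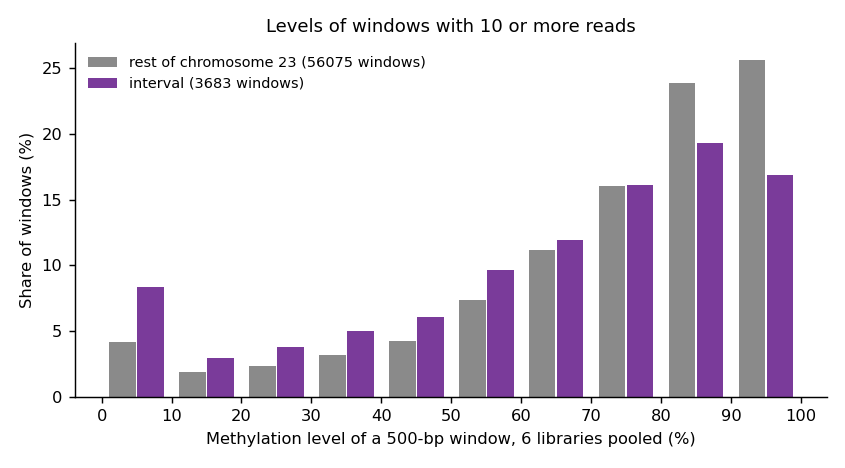
Share of windows (%) in steps of 10 points of methylation level, for the 3683 windows of the interval and the 56075 windows of the rest of chromosome 23 with 10 or more reads over 6 libraries. The interval has more windows in the lowest step, 8.34% against 4.14%, and fewer in the highest, 16.9% against 25.6%.

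The make-up also differed within density classes. Of the 355 members with over 30 cytosines, 170 (47.9%) were low and 114 (32.1%) high. On the rest of the chromosome 25.1% of such windows were low and 50.2% high. In the class of 16 to 30 cytosines, 98 of 758 members (12.9%) were low against 5.96% on the rest. The low share was 5.83% against 3.45% among windows with 6 to 15 cytosines and 5.47% against 4.41% among those with 1 to 5. In percentage points the gap was widest in the densest class, but as a ratio it was wider with 16 to 30 cytosines. These counts describe pooled levels and carry no test.

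Single cytosines were compared with the other cytosines of their window. Among the 6265 cytosines of the interval that had 6 or more reads over the libraries and 10 or more further reads in the same window, 29.1% had surroundings under 20%, against 13.8% on the rest. In such surroundings 88.9% of the cytosines were themselves under 20%, and 69.99% had no methylated read, against 92.5% and 76.0% on the rest. In surroundings of 80% or more, 78.7% of the cytosines were at 80% or more and 38 of 2294 (1.66%) were under 20%, against 82.0% and 1.17% on the rest. In intermediate surroundings, which held 34.3% of the cytosines, 44.5% of them were intermediate, 16.3% were under 20% and 39.2% were at 80% or more. On the rest, 44.8% of the cytosines in such surroundings were intermediate, 12.9% were under 20% and 42.3% were at 80% or more. Cytosines thus mostly shared the class of low or high surroundings. In intermediate surroundings, the intermediate class was the largest, at 44.5%. A cytosine with as few as 6 reads can fall under 20% or reach 80% by sampling alone. How often this happened was not tested, so these shares do not show a mix of low and high cytosines.

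Along the interval, the 40 bins of 100 kb fell into 3 stretches by the cytosines seen, set apart by a limit of 1000 seen cytosines per bin that was chosen after the bins had been seen. The first 3 bins, from 25000001 to 25300000, had 18.1 cytosines per kb. The next 16 bins, from 25300001 to 26900000, formed a sparse block with 5.03 cytosines per kb. The last 21 bins, from 26900001 to 29000000, had 23.2 per kb. Elsewhere on chromosome 23, 116 of 485 bins (23.9%) were also under that limit, and the longest run of such bins was 24. None of the 485 was as sparse as the sparsest of the block, however. They had at least 498 cytosines and 1.94 reads per cytosine, whereas bins of the block went down to 161 and 1.57.

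The sparse block differed from its neighbours in the number of windows that could be read as well as in density. A CpG cytosine was seen in 61.2% of its windows, against 93.5% in the first stretch and 92.5% in the last. Its longest run of windows without one was 10 kb, from 25364501 to 25374500. The block also had the fewest reads per seen cytosine, 2.06 over the 6 libraries, against 2.72 and 2.999. It gave 539 members, of which 35 were low (6.49%) and 79 high (14.7%). The last stretch gave 2774 members, of which 361 were low (13.0%) and 1089 high (39.3%). Low windows thus occurred at 21.9 per Mb in the sparse block and 172 per Mb in the last stretch.

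In spite of these contrasts, the sparse block and the last stretch had similar levels. The level was 61.9% ± 2.46 in the first, 55.9% ± 1.46 in the sparse block and 54.9% ± 0.851 in the last (SD, n = 6 libraries). At equal density, they lay 10.3, 10.9 and 11.0 points below the rest of the chromosome (mean of 6 libraries, two-sided exact sign-flip permutation p = 0.03125 each). The sparse block reached its level with smaller shares of low and of high members than the last stretch.

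**Figure D3:**
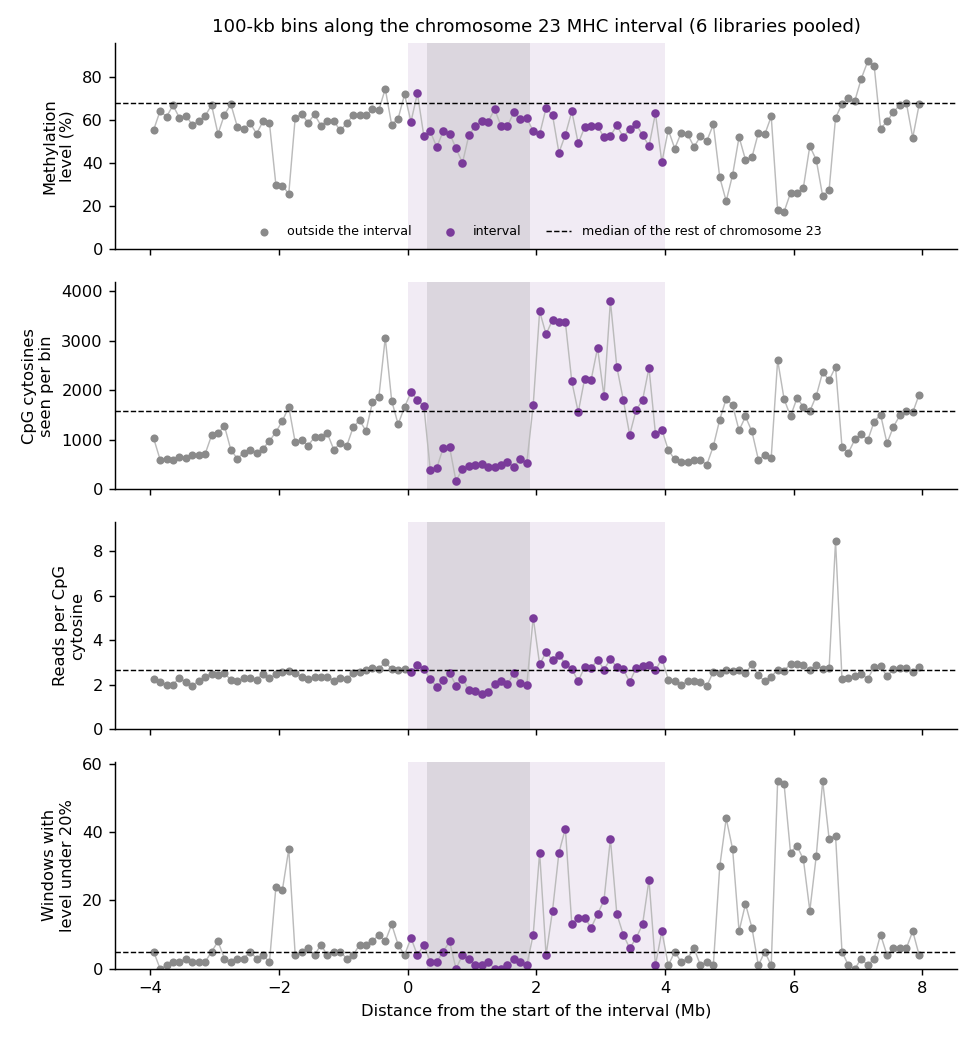
Methylation level (%), CpG cytosines seen, reads per cytosine and number of windows under 20%, in 100-kb bins by distance (Mb) from the start of the interval, with 6 libraries pooled. The interval is shaded, its sparse block darker, and the dashed line is the median of bins on the rest of chromosome 23; 39 of 40 bins of the interval lie below that median level of 67.9%.

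Of the 40 bins, 39 lay below the median level of the rest of the chromosome, 67.9%, and 31 lay under 60%, against 134 of 485 bins (27.6%) on the rest. The 40 bins ran from 40.04% to 72.3% and the 485 bins of the rest from 17.4% to 90.7%, but a range widens with the number of bins. The lower and upper quartiles were 52.5% and 59.3% in the interval and 59.3% and 75.5% on the rest. The lowest bin, from 25800001 to 25900000, was in the sparse block. Its level was 41.0%, 43.8% and 38.0% in control replicates 1 to 3 and 39.1%, 36.9% and 41.5% in butyrate replicates 1 to 3, from 117 to 195 reads per library. Its pooled level of 40.04% had a 95% Wilson interval of 37.0% to 43.2%, which covers counting error only, since reads may be duplicates and 1 read can cover several CpGs.

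The next lowest bins lay in the last stretch. The last bin of the interval, from 28900001 to 29000000, with 1202 cytosines, had a level of 40.4% (Wilson interval 38.8% to 41.9%) from 3806 reads. The bin from 27300001 to 27400000, with 3376 cytosines, had a level of 44.8% (43.9% to 45.7%) from 11282 reads, with 34 low windows among its 148 members. In the latter, libraries ran from 39.9% in control replicate 2 to 48.0% in control replicate 1, so that the spread among controls covered the whole butyrate range.

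At the other end, the bin from 25100001 to 25200000 had a level of 72.3% (71.0% to 73.5%), the one value above the median of the rest. It was followed by the bins from 27100001 to 27200000, at 65.5% (64.6% to 66.4%), and from 26300001 to 26400000, at 64.9% (61.7% to 68.0%). The bin from 27100001 had 3125 cytosines, but only 4 of its 144 members were low. High and low bins thus lay close to each other in the last stretch. Over the 40 bins, level and cytosine number were unrelated, with a Pearson r of 0.014 and a Spearman rho of 0.011, given as a description over bins that share libraries and are not independent.

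Reads per cytosine also varied along the interval. Over the 40 bins, the Pearson r with the number of cytosines was 0.67 and the Spearman rho 0.82, and over 485 bins of the rest they were 0.19 and 0.89. These describe a relation that is partly fixed by counting only cytosines with a read. The fewest reads per cytosine were in the sparse block, with 1.57 in the bin from 26100001 to 26200000, 1.67 in the bin from 26200001 to 26300000 and 1.71 in the bin from 26000001 to 26100000. In the first of these, levels ran from 44.1% in control replicate 1 to 71.5% in control replicate 3, a spread among controls of 13.8 points (SD, n = 3), against 4.87 points in the bin from 26000001 and 3.62 points in the bin from 26200001. The most were in the bins from 26900001 to 27000000, with 5.02, from 27100001 to 27200000, with 3.47, and from 27300001 to 27400000, with 3.34.

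Cytosine number ran from 161 in the bin from 25700001 to 25800000, which had 314 reads and 8 members, to 3793 in the bin from 28100001 to 28200000, which had 183 members. After the former, the bins from 25300001 and 25800001 had 386 and 416 cytosines. After the latter, the bins from 27000001 and 27200001 had 3590 and 3418. Low windows were spread unevenly over the rich bins. Of the 416, 147 (35.3%) lay in the 4 bins with most of them, a share that is raised by picking bins on that count. These were the bins from 27400001 (41 of 175 members), 28100001 (38 of 183), 27000001 (34 of 174) and 27300001 (34 of 148). Other rich bins held fewer, with 17 of 166 members in the bin from 27200001 and 4 of 144 in the bin from 27100001.

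Low windows were often adjacent. The 416 low members formed 206 runs of adjacent windows, of which 56 had 3 windows or more. This is 14 such runs per Mb, against 7.36 per Mb on the rest of the chromosome. Low windows themselves also occurred more often, at 104 per Mb against 69.9. The longest run on the rest was longer than any in the interval, with 16 windows or 8 kb. Such runs are stretches of mostly unmethylated reads in a chromosome where most CpGs are methylated. The longest in the interval, from 28175501 to 28180000, covered 4.50 kb in 9 windows with 245 cytosines. Its level was 2.11%, 4.58% and 3.97% in control replicates 1 to 3 and 1.01%, 3.09% and 5.00% in butyrate replicates 1 to 3, from 60 to 153 reads per library. The window before it had a pooled level of 93.1% and the window after it 58.3%. The level thus changed sharply between adjacent windows, and more so on the side before the run.

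The next runs, each 4 kb long, went from 27436501 to 27440500 and from 27488501 to 27492500, with pooled levels of 2.51% and 2.86%. The run from 28103001 to 28106500 had the lowest pooled level of the longest 8, 1.099%, and no library above 1.56%. Then came 4 runs of 6 windows. Those from 28088001 to 28091000, from 28701001 to 28704000 and from 28223001 to 28226000 had pooled levels of 1.83%, 2.96% and 4.76%. The run from 27331501 to 27334500 stood out by depth, with 407 cytosines and 2585 reads, and by a higher level of 9.52%. It ran from 6.78% in control replicate 3 to 14.3% in butyrate replicate 3. In none of these 8 runs did the treatments separate (two-sided exact permutation p = 0.3 to 1 with n = 3 a group). Some shorter runs did separate, and their share is not given here. Among 500-bp windows of the genome with 10 or more reads in each library, 9.33% did. Those are single windows of any level and not runs of low windows, so that the 8 runs cannot be judged by that share.

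The deepest member, from 26989001 to 26989500, held 3602 reads on 48 cytosines, which is 2.03% of all reads of the interval. The window before it had no read, and the one after it had 136. Its reads ran from 458 to 657 per library, and its level was 51.1%, 57.5% and 51.0% in control replicates 1 to 3 and 57.6%, 59.97% and 61.1% in butyrate replicates 1 to 3. All butyrate values lay above all control values, though control replicate 2 and butyrate replicate 1 differed by less than 1 point (two-sided exact permutation p = 0.1, the smallest for 3 against 3). This member alone made its bin the one with the most reads per cytosine. The interval level changed little without it, with a treatment difference of 0.6499 points in place of 0.776.

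The next deepest members were dense and mostly unmethylated. The windows from 27135001 to 27135500 and from 27134501 to 27135000 were neighbours, with 150 and 140 cytosines, 925 and 726 reads and levels of 13.0% and 17.6%. The window from 27333001 to 27333500, inside the deeply read run above, had 756 reads and a level of 10.8%, with libraries from 0% in butyrate replicate 1 to 19.3% in control replicate 1. Dense windows were not all of this kind, and 114 members with over 30 cytosines were high. In the deepest of these, from 27367501 to 27368000, which was chosen after its values had been seen, the level was 86.7%, 83.3% and 88.9% in control and 88.0%, 94.0% and 77.4% in butyrate, from 27 to 83 reads per library.

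The second question was whether butyrate changed the level of the interval. The mean was 55.2% ± 0.570 in control and 56.0% ± 0.581 in butyrate (SD, n = 3). The difference was 0.776 points and the groups overlapped, since butyrate replicate 3 lay below control replicate 3 (two-sided exact permutation p = 0.2). On the rest of the chromosome the difference was 0.520 points, from 67.6% ± 0.0864 to 68.2% ± 0.147 (SD, n = 3), and the groups did not overlap (exact permutation p = 0.1). The difference in the interval minus that on the rest was 0.256 points, with overlapping groups (two-sided exact permutation p = 0.8). It ran from 0.02496 points without butyrate replicate 1 to 0.611 points without butyrate replicate 3. It was also under 0.256 points by more than 1.5 times without control replicate 1 (0.0750), control replicate 2 (0.139) or butyrate replicate 2 (0.132), and was 0.554 points without control replicate 3. Within lane 6, the control mean was exceeded by butyrate replicate 2 by 0.854 points in the interval and by 0.3505 points on the rest.

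By kind of window within the interval, the intermediate members gave the clearest separation. Their level was 56.6%, 57.96% and 57.3% in control replicates 1 to 3 and 58.7%, 58.3% and 58.8% in butyrate replicates 1 to 3. All butyrate values were higher, by 1.37 points on average (two-sided exact permutation p = 0.1), against 0.564 points on the rest (p = 0.1 in the same exact test). The high members differed by 0.492 points and the low members by -0.377 points, with overlap in both (exact permutation p = 0.2 each, n = 3 a group). On the rest, high windows differed by 0.575 points without overlap (p = 0.1 in the same exact test) and low windows by 0.0207 points. Separation was thus not limited to intermediate windows there. By density class, the treatments overlapped in all 4 classes within the interval, with differences from -0.229 points in the densest windows to 1.23 points in windows of 6 to 15 cytosines. Restricted to CpGs that had at least 10 reads in the library measured, the interval difference was 4.81 points and that minus the rest 3.72 points, with overlap in both (two-sided exact permutation p = 0.2, n = 3 a group). Only 2 windows of the interval had such CpGs in every library. Of the reads so kept, 370 to 589 per library lay in the deepest member. Its levels there were 51.1%, 56.2% and 50.9% in control and 55.1%, 58.5% and 60.3% in butyrate. The restricted difference without that member was not tested.

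Over the whole interval, depth separated the treatments and level did not. This comparison was added after the data had been seen. Reads per CpG cytosine in the interval, divided by those on the rest of the chromosome, were 0.995, 0.989 and 0.990 in control replicates 1 to 3. They were 0.944, 0.962 and 0.948 in butyrate replicates 1 to 3. All butyrate libraries lay below all controls, with means of 0.951 ± 0.00928 and 0.991 ± 0.00307 (SD, n = 3). The difference of -0.0400, or -4.03% of the control value, had a two-sided exact permutation p of 0.1, the smallest for this design. Within lane 6, butyrate replicate 2 (0.962) was below the lowest control (0.989). Over both treatments, the log2 ratio of interval to rest was -0.04 (two-sided exact sign-flip permutation p = 0.03125, n = 6), and without the CpGs of over 141 summed reads, the most deeply covered 0.1% of all CpGs, it was -0.02 (p = 0.344 in the same exact test). The treatment difference was -0.0399 without those CpGs.

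The lower depth in butyrate was not spread evenly over the interval. In the last stretch the ratio was 1.05 ± 0.00597 in control and 0.992 ± 0.0113 in butyrate (SD, n = 3), with no overlap. In the sparse block it went the other way, from 0.686 ± 0.0197 to 0.722 ± 0.0173 (SD, n = 3), again with no overlap (two-sided exact permutation p = 0.1 for each). In the first stretch it was 0.925 and 0.924. By density class, the groups were separate only in windows with over 30 cytosines, where the ratio to the same class on the rest was 0.957 ± 0.0274 in control and 0.892 ± 0.0312 in butyrate (SD, n = 3, two-sided exact permutation p = 0.1).

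The change was set beside that of other regions as the log2 ratio of the mean shares of autosomal reads, butyrate over control. It was -0.07 for the interval, and none of the other 606 autosomal blocks of 4 Mb was lower. Those ran from -0.06 to 0.11, with a median of 0.01. Blocks with more CpG cytosines had lower values (Spearman rho -0.64 over blocks, a description), and among the 184 blocks with at least as many as the interval the median was -0.01. The groups did not overlap in 24.3% of the other blocks, and did so with butyrate lower in 8.25%. The blocks on either side of the interval had higher ratios to the rest in butyrate, 0.852 against 0.837 before it, where the groups overlapped, and 0.998 against 0.976 after it, where they did not. The number of cytosines thus moved with this change across blocks, and its part in the value of the interval was not tested.

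**Figure D4:**
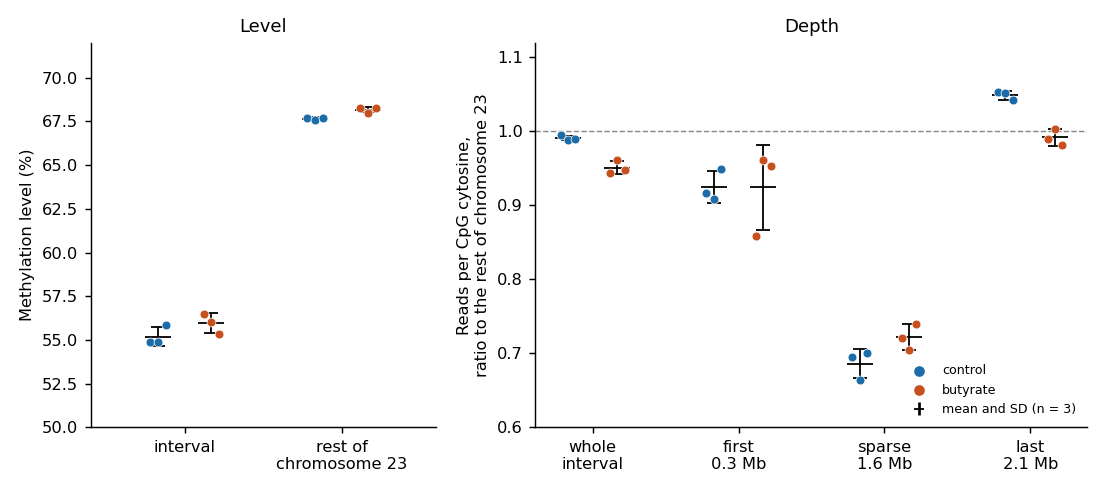
Left, methylation level (%, axis from 50%) of the interval and the rest of chromosome 23; right, reads per CpG cytosine as a ratio to the rest of chromosome 23 (axis from 0.6), for the whole interval and its 3 stretches. Points are libraries (control blue, butyrate orange), with the mean and SD of 3; the treatments overlap in the level of the interval but not in its depth ratio, 0.951 in butyrate against 0.991 in control.

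To see whether butyrate changed single 100-kb bins, the log2 ratio of methylated to unmethylated reads was tested with limma in all 27035 bins of the genome with 100 or more reads in each library. Of the 40 bins of the interval, 39 could be tested. The bin from 25700001 had too few reads. In limma with Benjamini-Hochberg adjustment, 0 of the 39 passed an adjusted p of 0.05, against 0% of all bins, and 2 of the 39 had an unadjusted p under 0.05, against 5.58% of all bins. In 22 of the 39 the estimate was higher in butyrate, against 59.7% of all bins. The groups did not overlap in 4 of the 39, against 11.2% of all bins. These shares were near those of the genome.

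**Figure D5:**
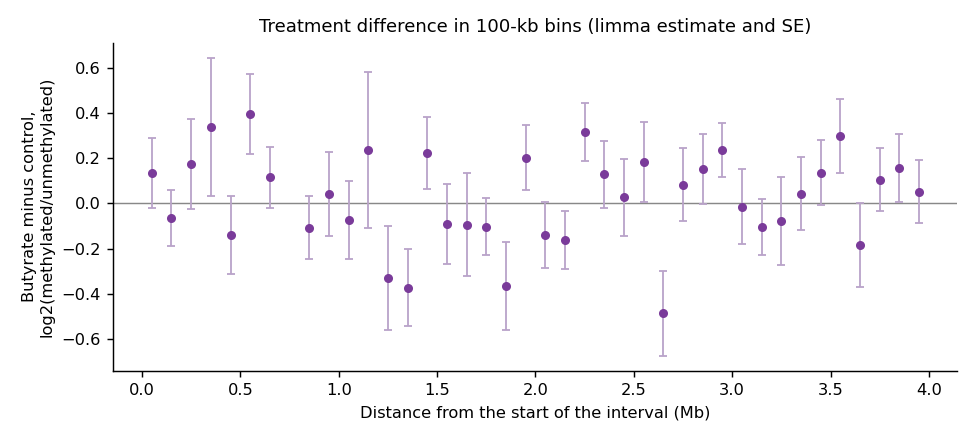
Difference in log2(methylated/unmethylated reads), butyrate minus control, for the 39 tested 100-kb bins by distance (Mb) from the start of the interval; points are limma estimates and bars their SE. The estimates lie on both sides of 0, 22 of them above it, and none passed an adjusted p of 0.05.

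The bins with the smallest p in each direction show the size of what was seen. In the bin from 27200001 to 27300000, the level was 60.5%, 61.3% and 57.5% in control replicates 1 to 3 and 65.9%, 66.1% and 62.7% in butyrate replicates 1 to 3, and its log2 ratio was higher by 0.32 (SE 0.13). In the bin from 25500001 to 25600000, in the sparse block, it was higher by 0.40 (SE 0.18), with overlap of the groups, and by 0.60 with lane as a factor. The bin from 27600001 to 27700000 was lower in butyrate, with a level of 50.9%, 50.2% and 56.7% in control and 37.6%, 48.1% and 47.0% in butyrate, and a log2 ratio difference of -0.49 (SE 0.19). That difference was -0.29 without butyrate replicate 1 and -0.26 with lane as a factor. In the bin from 26300001 to 26400000 the log2 ratio differed by -0.37 (SE 0.17), and by -0.19 without control replicate 3. The adjusted p from limma was 0.882 for each of the 4.

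Last, differentially methylated regions (DMRs) were sought in 500-bp windows by logistic regression on the counts of CpGs that had reached 10 reads in a library, with a Benjamini-Hochberg q under 0.05 and a difference of pooled levels over 10 points. Only 2 windows of the interval could be tested, and 0 were called, against 0.789% of 8874 windows in the genome. The deepest member, from 26989001, had a pooled difference of 5.59 points (logistic regression q = 0.0724, quasi-binomial F test q = 0.918). The window from 25146501 to 25147000 had a pooled difference of -1.32 points (logistic regression q = 0.952), with 36 to 55 reads per library and a sign that changed with the CpGs counted. With at least 20 reads per CpG, 2 windows of the interval were tested and the deepest member was called, against 1.11% of windows in the genome. Its difference was then 11.9 points (logistic regression q = 8.5e-05). That filter can keep different CpGs in different libraries. With the same CpGs in all libraries, at 10 reads, the difference was 6.69 points (logistic regression q = 0.0902) and the window was not called.

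When all CpGs of a window were summed, 183 windows of the interval with 10 or more reads in each library could be tested, and 4 (2.19%) were called, against 0.517% of 103361 windows in the genome. Of these, 2 were higher in butyrate, against 0.274% of windows called higher in the genome, and 2 were lower, against 0.243%. The window from 27275001 to 27275500 had a level of 69.6%, 86.7% and 67.5% in control replicates 1 to 3 and 100%, 93.3% and 95.1% in butyrate replicates 1 to 3, from 23 to 61 reads per library. In the window from 27690001 to 27690500, it was 56.3%, 66.7% and 45.5% in control and 0%, 26.3% and 0% in butyrate, from 11 to 32 reads. These lay on 6 to 31 CpG cytosines per library. In butyrate replicate 1, the 11 counts lay on 11 cytosines, so that few sequenced reads may underlie them. Both windows showed no overlap of the treatments, with pooled differences of 21.8 and -42.6 points (logistic regression q = 0.00163 and 0.00237).

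The window from 28922001 to 28922500 had a level of 10%, 12.3% and 20.5% in control and 2.33%, 3.33% and 4.92% in butyrate, from 10 to 90 reads. Its pooled difference was -12.8 points (logistic regression q = 0.00577). In the window from 27332501 to 27333000, inside the deeply read low run, the level was 11.4%, 5.99% and 12.1% in control and 35.2%, 21.4% and 11.6% in butyrate, from 54 to 217 reads. The groups overlapped there, at a pooled difference of 11.5 points (logistic regression q = 0.00778). The logistic regression takes every count as independent and leaves out the spread between libraries. With the quasi-binomial F test, which uses that spread, 0 of the 183 windows were called (q from 0.704 to 0.905 for these 4), against 0.0029% of windows in the genome. An unadjusted p under 0.05 was reached in that test by 15 of the 183 windows, against 5.74% in the genome. Of the 183 windows, 83 were higher in butyrate, against 52.96% of windows in the genome, and 15 (8.20%) showed no overlap of the groups, against 9.33% in the genome.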

How the data were processed

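DNA methylation of 6 REPC libraries was measured by WGBS. Per the methods of the study, reads were trimmed by the authors (Trim Galore 0.4.1), mapped to UMD3.1.1 (bowtie2) and called with Bismark at default settings. Removal of duplicate reads was not given in the sources used here, and labels and methods differ in read length and run type. The deposited values are counts of methylated and unmethylated reads per CpG cytosine of each strand, with no minimum of coverage and no header, and the methylated column was recognised from the values.

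Reads were summed over 500-bp windows, 100-kb bins and the interval. Levels at equal density were averaged over 4 classes of cytosines per window, weighted by the reads of each class on the whole chromosome. The interval and the rest were compared by exact sign-flip tests and treatments by exact permutation tests of 3 against 3, both two-sided. Bins were tested with limma 3.58.1 (R 4.3.3) on log2((methylated + 1)/(unmethylated + 1)), and windows by logistic regression with a likelihood-ratio test, both with Benjamini-Hochberg adjustment over the whole genome. The scripts were tested on simulated data and ran in Python 3.11.15 (SciPy 1.17.1).

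Bins were named if among the 3 highest or lowest by level, reads per cytosine or cytosines, or if they had the 2 smallest limma p-values in either direction. Windows were named if DMRs, if among the 4 tested windows with the smallest logistic regression p, if among the 4 deepest members, or in the 8 longest runs of low members. The members and the lists were chosen with earlier results of these data known. No pair of replicate libraries agreed within sampling noise (chi-square over degrees of freedom 1.29 to 1.35 over windows), but this check takes counts as independent and cannot tell separate cultures from repeat libraries of 1 culture. All 6 were counted as separate samples because the labels list them so. The study's methods call the replicates biological, but all cells came from 1 calf and the sources used here do not say whether the replicates were separate cultures, so that p-values measure the spread between these libraries. Alternatives changed the CpGs, bounds, bin size, coverage minimum, lane term, test or libraries.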

Additional observations from a re-analysis of the deposited data

How the results depend on the processing

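The difference in level between the interval and the rest kept its direction in all alternatives. With 1 library left out it ran from -12.4 to -12.2 points, and at equal density from -11.7 to -11.4 points, with p = 0.0625 throughout, the smallest that an exact sign-flip permutation test of 5 libraries can give. The log2 depth ratio of interval to rest ran from -0.0496 to -0.0345 with 1 library left out (p = 0.0625 each in that exact test). It was -0.0151 without the most deeply covered CpGs (exact sign-flip permutation p = 0.344) and -0.203 against all other autosomes, and the cause was not tested. By 4-Mb block, however, the 2.85 reads per cytosine of the interval lay above 329 autosomal blocks and below 277. The autosomal median was 2.83 and the maximum 14.98. The treatment difference in level was 0.507 to 1.11 points with 1 library left out and 0.6499 to 4.81 points under other alternatives, with an exact permutation p of at least 0.2 throughout. The treatment difference in depth ratio was -0.0452 to -0.0365 with 1 library left out (exact permutation p = 0.2, the smallest for 2 against 3).

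No bin was called by limma in any of 14 alternatives. The count of DMRs was 0 with each library left out in turn, 1 with at least 20 reads per CpG and 4 with all CpGs summed, where more windows could be tested. With all CpGs summed, it ran from 2 (without control replicate 3) to 6 (without control replicate 1) and was 0 with the quasi-binomial F test. The window at 27690001 lost its call without butyrate replicate 3 (logistic regression q = 0.0542), that at 27275001 without control replicate 3 (q = 0.0853), and that at 28922001 without control replicate 3 (q = 0.263) or butyrate replicate 1 (q = 0.0557). That at 27332501 lost it without control replicate 2, butyrate replicate 1 or butyrate replicate 2. The window at 25146501 turned its direction, to 1.22 points with at least 20 reads per CpG and with the same CpGs in all libraries, and to 1.85 points with all CpGs summed. With 1 library left out its difference ran from -4.94 points (without butyrate replicate 3) to 2.28 points (without butyrate replicate 2), and it was 0.0827 points without control replicate 3.

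Replicate numbers did not pair the libraries, with correlations of deviations of 0.00059, 0.0082 and 0.0066 between control and butyrate bins of the same number. With the replicate number as a block, the treatment difference was 0.776 points in level (exact sign-flip permutation p = 0.5), 0.256 points against that on the rest (p = 0.75 in the same exact test) and -0.03997 in depth ratio (p = 0.25, the smallest for 3 pairs in that exact test). The block gave 0 called bins, 0 DMRs and 4 with all CpGs summed, and so changed no call. Density from the genome sequence and promoter windows of genes were not run, because no genome of this assembly was used. Leaving out the deepest member or the neighbouring blocks, the depth comparison between treatments, and the repeats of the summed-CpG windows were chosen after seeing the data. Depth limits the result at single windows, since 183 of 3683 members had 10 reads in each library.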
